A study of Mus musculus with 6 samples.

Results

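The Notch receptors, their ligands and the enzymes that modify them were examined in mouse cerebral cortex cells given wild-type or mutant PRPF6. The set held 9 genes chosen by symbol from the 24041 genes of the count table: the receptors Notch1, Notch2 and Notch3, the ligands Dll1, Dll3 and Jag1, the fringe glycosyltransferases Lfng and Mfng, and the ubiquitin ligase Mib1. All 9 were found, and all 9 passed the filter on low counts, as 14451 genes did. One group of 3 libraries came from GFP-sorted cells of cortices electroporated with GFP and wild-type PRPF6, and the other 3 libraries from cells given GFP and mutant PRPF6. PRPF6 is a protein of the tri-snRNP, the particle that carries catalytic RNAs into the spliceosome, and the comparison asks which transcripts differ with the form of PRPF6 supplied. Every library thus carried both a GFP and a PRPF6 plasmid, and no group went without PRPF6, so that a higher level with the mutant cannot be told apart from a lower level with the wild-type protein. The labels give no age, strain, promoter, mutation or species of the plasmid, and give no number of animals behind the libraries. A p-value here therefore weighs a difference only against library-to-library spread, some of which may be technical.

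Notch signalling passes between touching cells. A Delta or Jagged ligand on one cell pulls on a Notch receptor on its neighbour, the receptor is cut, and its intracellular part enters the nucleus, where it joins the DNA-binding protein RBPJ and switches on Hes genes. In the embryonic cortex, radial glia, the neural stem cells, receive the signal and remain stem cells, while their neurogenic daughters carry the ligand. Fringe enzymes add sugars to the receptor that change which ligands it answers to, and Mib1 marks ligands for the endocytosis that activates the receptor.

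The libraries held 45115122 to 60600617 expected counts, of which the 9 genes took 25058 to 59890. Values below are CPM, counts scaled to each library's normalised total. Markers of cortical cells were present in every library: none of the 12 radial glia, 10 intermediate progenitor and 12 excitatory neuron markers was at 0 counts anywhere. Summed radial glia markers lay at 1679 to 2371 CPM with wild-type and 2482 to 4172 CPM with mutant PRPF6, and summed excitatory neuron markers at 3105 to 4635 CPM and 1535 to 3232 CPM. Some libraries stood apart. Mutant replicate 1 held both the highest radial glia and the lowest neuron sum, wild-type replicate 3 the highest sums for red blood cells (13420.5 CPM against 66.4 to 2515 CPM elsewhere) and meningeal fibroblasts (1747 against 70.8 to 234 CPM), and mutant replicate 2 the highest microglia sum (878 against 37.5 to 332 CPM). Summed interneuron markers, in the order of replicates 1 to 3, were at 141, 412 and 874 CPM with wild-type and 737, 403 and 293 CPM with mutant PRPF6. In sorted bulk RNA, more cells of a type and more RNA per cell cannot be told apart.

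Across all genes, 0 of 14451 passed edgeR's quasi-likelihood test after Benjamini-Hochberg adjustment (0% called), and hence 0 of the 9. Before adjustment 489 genes had p under 0.05, limma-voom called 0 genes with 551 under 0.05, and DESeq2 called 12 genes, none of them among the 9. Each of the 9 had an edgeR adjusted p of 1.00. The differences below are therefore descriptions of these libraries, with intervals, and are not called changes.

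Fitted means were higher with mutant PRPF6 for 8 of the 9 genes, against 49.8% of all tested genes, and the median log2 difference was 0.60 against −0.0013 for all genes. The exception was Jag1. Notch1, Notch3 and Mfng had an unadjusted p under 0.05 in the higher direction, as did 2.18% of all genes, and 0 of the 9 did so in the lower direction, as did 1.2% of all genes. The share over both directions was 3.38% of all genes. For 2 of the 9, Notch1 and Notch3, the lowest mutant library exceeded the highest wild-type one, as was so for 4.6% of all genes. The 9 genes were chosen with earlier results of these data known, so these comparisons with all genes are no test of the set.

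**Figure D1:**
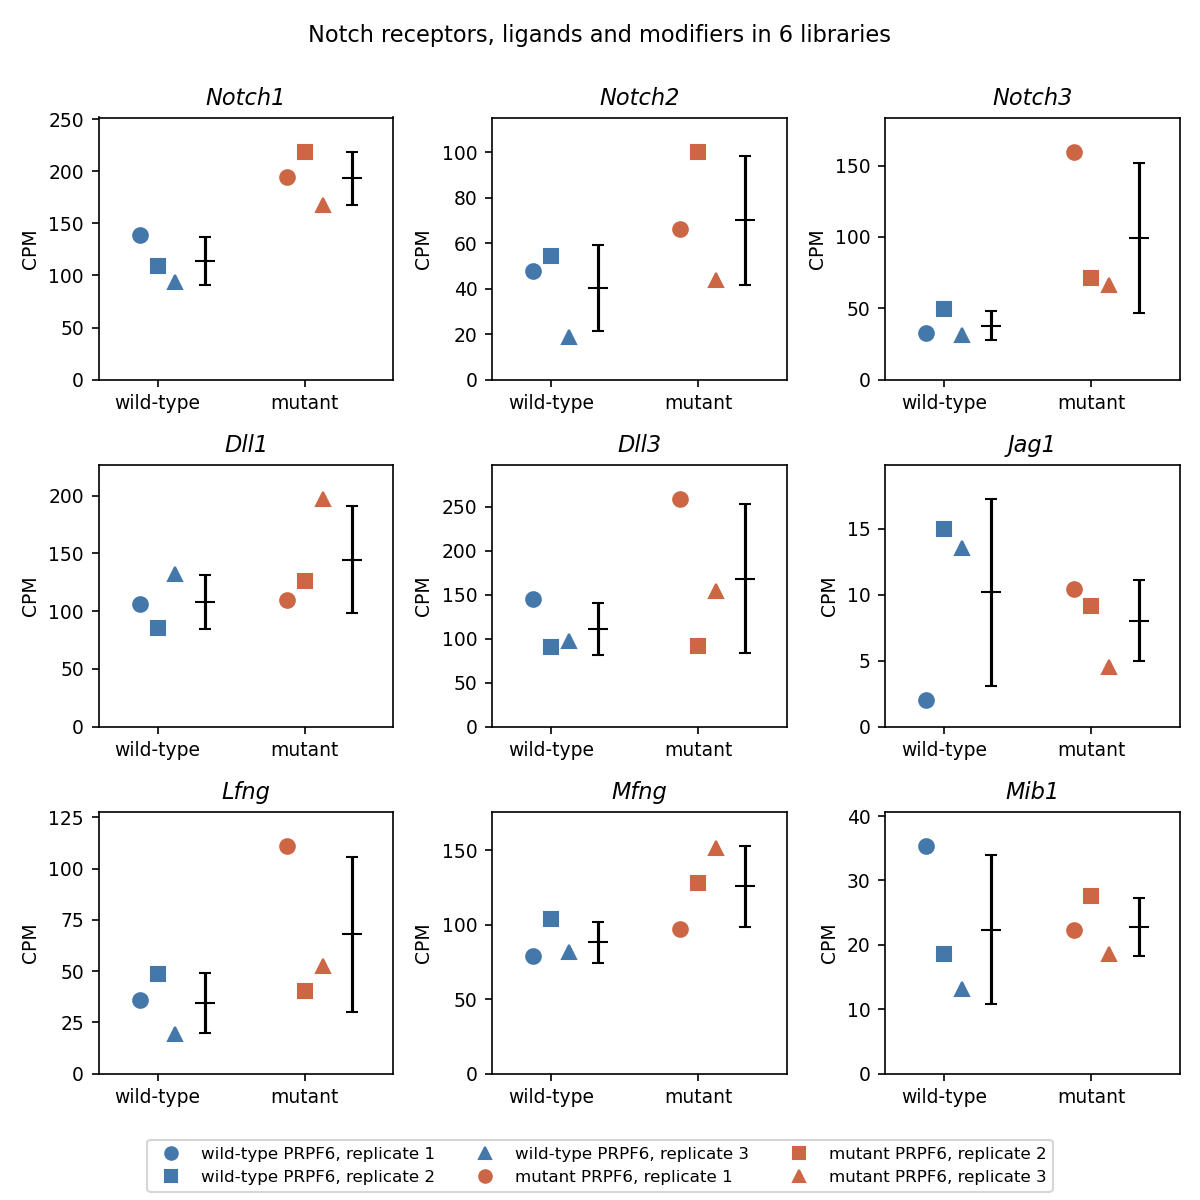
CPM (y axes, from 0) of each of the 9 genes in the 3 wild-type and 3 mutant PRPF6 libraries, with symbols for the replicate number, and the group mean with its SD as a bar. The groups are separate for Notch1 and Notch3 and overlap for the other 7 genes.

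The sequence before the start site is shown for both genes whose groups were separate, and for Lfng, the one gene of the set whose window held a match to the RBPJ site. RefSeq start sites on GRCm38.p6 were listed for 7 of the 9 genes, in 8 windows. The 250 bases before each start were searched on both strands for TGGGAA, the core of the RBPJ site, whose reverse complement is TTCCCA. Each run below gives, 5′ to 3′ on the gene's own strand, the stretch from 250 to 51 bases before the start, and capitals mark TGGGAA or TTCCCA. The windows are chr2:26503873-26504072 (minus strand) for Notch1, chr17:32166941-32167140 (minus strand) for Notch3 and chr5:140607091-140607290 (plus strand) for Lfng. The Notch1 window lies inside the annotated span of the gene (26457903 to 26516663), so bases before the 5′ end of that span were not searched.
Notch1: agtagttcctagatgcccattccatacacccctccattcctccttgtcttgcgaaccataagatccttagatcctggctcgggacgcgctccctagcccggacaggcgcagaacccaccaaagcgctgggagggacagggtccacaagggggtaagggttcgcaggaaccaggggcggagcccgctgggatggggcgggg
Notch3: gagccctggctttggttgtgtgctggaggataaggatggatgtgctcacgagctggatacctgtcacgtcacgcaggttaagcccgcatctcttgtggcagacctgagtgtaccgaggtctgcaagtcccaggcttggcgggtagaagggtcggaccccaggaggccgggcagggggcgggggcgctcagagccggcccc
Lfng: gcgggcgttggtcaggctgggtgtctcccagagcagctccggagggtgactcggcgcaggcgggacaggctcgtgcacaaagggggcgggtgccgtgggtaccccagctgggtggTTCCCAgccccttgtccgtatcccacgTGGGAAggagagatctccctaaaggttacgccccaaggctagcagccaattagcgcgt

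Lfng held 2 matches, beginning 135 and 108 bases before the start on opposite strands, and the match at 108 bases extends to the longer form CGTGGGAA. The other 7 windows of the set held 0 matches. TGGGAA was found in 21.6% of 32851 windows of this length in the RefSeq table and CGTGGGAA in 0.636%. A match is a description of letters in this window, and its absence from the Notch1 and Notch3 windows says only that these letters are not there. The E-box letters CANNTG, to which proneural factors bind, were in 66.2% of all windows. They were present in both Dll1 windows and the Dll3, Jag1 and Lfng windows, and absent from the 3 receptor windows, whose GC content was 66% to 72% against a median of 52.4% for all windows.

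Levels were compared between genes as CPM per kilobase of the longest coding transcript, averaged over the 6 libraries. Mfng was highest, at 57.3 ± 15.1 CPM per kb (SD, n = 6), followed by Dll3 at 53.3 ± 24.8, Dll1 at 35.3 ± 10.7 and Lfng at 22.2 ± 13.7 CPM per kb. The receptors came next, with Notch1 at 16.2 ± 5.13, Notch3 at 8.54 ± 5.95 and Notch2 at 5.25 ± 2.57 CPM per kb. Mib1, at 2.21 ± 0.77, and Jag1, at 1.62 ± 0.90 CPM per kb, were lowest. The ranges over libraries of every pair of neighbours in this order overlapped, so the order of neighbours is not fixed beyond their spread. Ends of the order were far apart: the lowest library of Mfng, 42.3 CPM per kb, lay above the highest of Jag1, 2.67 CPM per kb. It also lay above the highest of Notch1, in the middle of the order, 23.0 CPM per kb.

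Notch1 (chromosome 2, 26457903 to 26516663, minus strand, GRCm38), the main receptor of cortical radial glia, was at 139, 109 and 93.6 CPM with wild-type and at 195, 218 and 167 CPM with mutant PRPF6, here and below in the order of replicates 1, 2 and 3. The mutant libraries were thus all above the wild-type ones. The log2 difference was 0.76 ± 0.19 (SE), with a 95% interval of 0.32 to 1.21 before any correction for the number of genes, an unadjusted edgeR p of 0.00395 and rank 19 of 14451. With each library left out in turn it stayed between 0.65 and 0.93. The opposite-strand transcripts Gm13568 and 0610009E02Rik, which the count table does not list, overlap 414 and 1068 of the 14232 exonic bases of Notch1, and with the strand setting of the counting not given, their reads cannot be told apart from those of Notch1.

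Notch3 (chromosome 17, 32120820 to 32166852, minus strand), a receptor of radial glia and of the mural cells of blood vessels, was at 32.4, 49.6 and 31.5 CPM with wild-type and at 159.8, 71.3 and 66.3 CPM with mutant PRPF6. Mutant replicate 1 was the highest library, and the lowest mutant library was above all wild-type libraries. Its log2 difference, the greatest in the set, was 1.39 ± 0.37 (SE), with a 95% interval of 0.53 to 2.25, an unadjusted edgeR p of 0.00570 and rank 35. Without mutant replicate 1 it was 0.86, and without both that library and wild-type replicate 3 it was 0.75. The antisense transcript Gm17276 overlaps 488 of its 8089 exonic bases. Mural cell markers summed to 18.5, 19.0 and 238 CPM with wild-type and to 79.9, 54.5 and 10.9 CPM with mutant PRPF6. The sum was highest in wild-type replicate 3, and next in mutant replicate 1, where Notch3 was highest. Of the 10 mural markers, 1 was at 0 counts in each of wild-type replicates 1 and 2 and mutant replicate 3, and none in the other libraries. In mutant replicate 3 the mural genes Pdgfrb, Cspg4 and Vtn were at 4.605, 3.03 and 1.66 CPM, and Rgs5 at 0.251 CPM. Pdgfrb was highest in mutant replicate 1, at 56.7 CPM, where Vtn was at 13.4 and Cspg4 at 9.14 CPM. The other mural markers, Rgs5, Kcnj8, Anpep, Abcc9, Acta2, Tagln and Ndufa4l2, were at 0.034 to 0.138 CPM in that library. The part of mural cells in the Notch3 levels was not tested.

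Notch2 (chromosome 3, 98013527 to 98150361, plus strand), the third receptor of the set, was at 47.9, 54.4 and 18.7 CPM with wild-type and at 66.0, 100.1 and 43.7 CPM with mutant PRPF6. The groups overlapped through mutant replicate 3. The transcript Gm42820, which the count table does not list, overlaps 541 of the 10782 exonic bases of Notch2 on the same strand, so that its reads could be separated under no strand setting. The log2 difference was 0.79 ± 0.44 (SE; 95% interval −0.21 to 1.80), and leaving out mutant replicate 2 or wild-type replicate 3 gave 0.44 or 0.46. Of the receptor signal per kilobase, Notch1 made up 50.3% to 63.3% with wild-type and 43.9% to 58.7% with mutant PRPF6, and Notch3 17.4% to 27.0% and 21.5% to 42.7%. Notch1 was the most abundant receptor in all 6 libraries on this scale, narrowly so in mutant replicate 1 (20.5 against 19.9 CPM per kb for Notch3).

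Dll1 (chromosome 17, 15367354 to 15376872, minus strand), the Delta ligand that activates Notch on neighbouring cells, was at 106, 85.7 and 132 CPM with wild-type and at 110.0, 126 and 197 CPM with mutant PRPF6. Only mutant replicate 3 lay outside the wild-type range. The log2 difference was 0.42 ± 0.26 (SE; 95% interval −0.18 to 1.02). Leaving out mutant replicate 3 gave 0.13, and leaving out wild-type replicate 2 gave 0.27. The lincRNA A930024N18Rik, on the opposite strand and not in the count table, overlaps 867 of the 4219 exonic bases of Dll1.

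Dll3 (chromosome 7, 28293553 to 28302238, minus strand), a divergent Delta protein that acts inside the cell that makes it rather than on its neighbours, was at 145, 91.0 and 96.8 CPM with wild-type and at 259, 91.7 and 154 CPM with mutant PRPF6. Mutant replicates 1 and 3 lay above all wild-type libraries, and mutant replicate 2 beside the lowest. A log2 difference of 0.60 ± 0.36 (SE; 95% interval −0.24 to 1.43) became 0.14 without mutant replicate 1. Dll3 was above Dll1 per kilobase in 3 of 3 wild-type libraries, 36.99 against 36.86 CPM per kb in replicate 3, and in 2 of 3 mutant libraries.

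Jag1 (chromosome 2, 137081456 to 137116644, minus strand), the Jagged ligand of the set, was the least abundant gene and the most variable, at 2.04, 14.99 and 13.5 CPM with wild-type and 10.4, 9.18 and 4.54 CPM with mutant PRPF6. All mutant libraries fell inside the wild-type range. The log2 difference of −0.34 ± 0.74 (SE; 95% interval −2.04 to 1.36) was −0.83 without wild-type replicate 1 and changed sign, to 0.043, without wild-type replicate 2. Jag1 made up 0.425% to 4.35% of the ligand signal per kilobase in the 6 libraries, against 23.4% to 49.0% for Dll1 and 48.5% to 75.2% for Dll3.

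Lfng (chromosome 5, 140607320 to 140615545, plus strand), lunatic fringe, was at 35.8, 48.7 and 19.4 CPM with wild-type and at 111, 40.3 and 52.3 CPM with mutant PRPF6. Mutant replicate 1 was far above the rest, and mutant replicate 2 was below wild-type replicate 2. The log2 difference of 0.97 ± 0.45 (SE; 95% interval −0.062 to 2.01) was 0.42 without mutant replicate 1 and 0.14 without both that library and wild-type replicate 3.

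Mfng (chromosome 15, 78755882 to 78773475, minus strand), manic fringe, which is expressed in neurogenic progenitors, was at 78.9, 103.8 and 81.9 CPM with wild-type and at 97.3, 128 and 152 CPM with mutant PRPF6. Mutant replicate 1, highest of all for Lfng, was the lowest mutant library for Mfng and lay below wild-type replicate 2. Its log2 difference was 0.51 ± 0.21 (SE), with a 95% interval of 0.027 to 1.00, an unadjusted edgeR p of 0.0410 and rank 407. Of the combined Lfng and Mfng signal per kilobase, Mfng took 72.5% to 83.9% in wild-type libraries, 52.0% in mutant replicate 1, and 79.7% and 78.2% in mutant replicates 2 and 3. Rfng, radical fringe, which lies outside the set, had means of 113 ± 11.5 and 97.5 ± 7.73 CPM (SD over 3 libraries, wild-type then mutant), and was named after its values were seen.

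Mib1, the ligase needed for ligands to signal, was at 35.4, 18.6 and 13.2 CPM with wild-type and at 22.2, 27.6 and 18.5 CPM with mutant PRPF6. All 3 mutant libraries lay inside the wild-type range. The log2 difference was 0.026 ± 0.40 (SE; 95% interval −0.89 to 0.94), an interval that runs from 0.539 to 1.92 times the wild-type level, and its sign turned without wild-type replicate 2 (−0.091), wild-type replicate 3 (−0.24) or mutant replicate 2 (−0.13). Without wild-type replicate 1 it was 0.52.

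**Figure D2:**
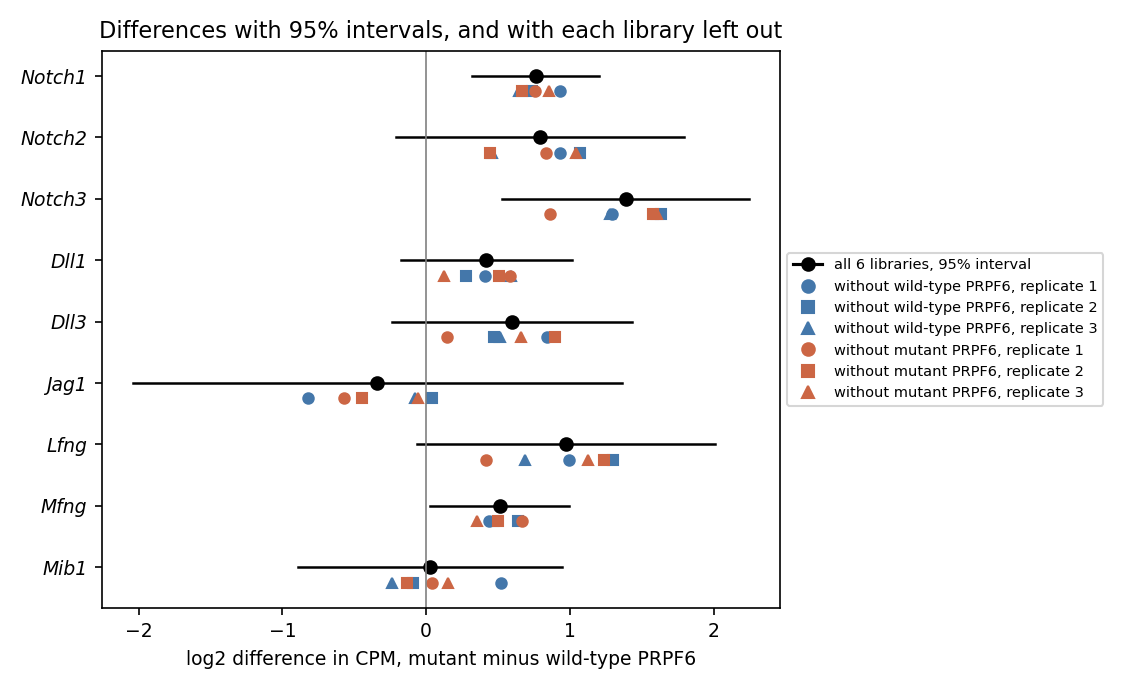
Log2 difference in CPM, mutant minus wild-type PRPF6 (x axis), for the 9 genes, with black points and bars for the estimate and its 95% interval over all 6 libraries, and coloured symbols for the estimate without 1 library. The intervals of Notch1, Notch3 and Mfng lie above 0, and the estimates of Jag1 and Mib1 fall on both sides of 0 when libraries are left out.

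The 9 genes did not share a single profile over libraries. Centred on its mean over the 6 libraries, the set averaged −0.32, −0.069 and −0.52 in wild-type replicates 1 to 3 and 0.54, 0.25 and 0.11 in mutant replicates 1 to 3 (log2 units). Wild-type replicate 3 was the lowest library for 5 of the 9 genes, and mutant replicate 1 the highest for 3, namely Notch3, Dll3 and Lfng. The most alike pairs were Dll1 with Mfng, with a root mean square difference of 0.31 log2 units between centred profiles over 6 libraries, and Notch3 with Lfng (0.35). Both Dll1 and Mfng peaked in mutant replicate 3, and both Notch3 and Lfng in mutant replicate 1. Jag1 was the outlying profile, at 1.04 or more from each of the other 8 genes.

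**Figure D3:**
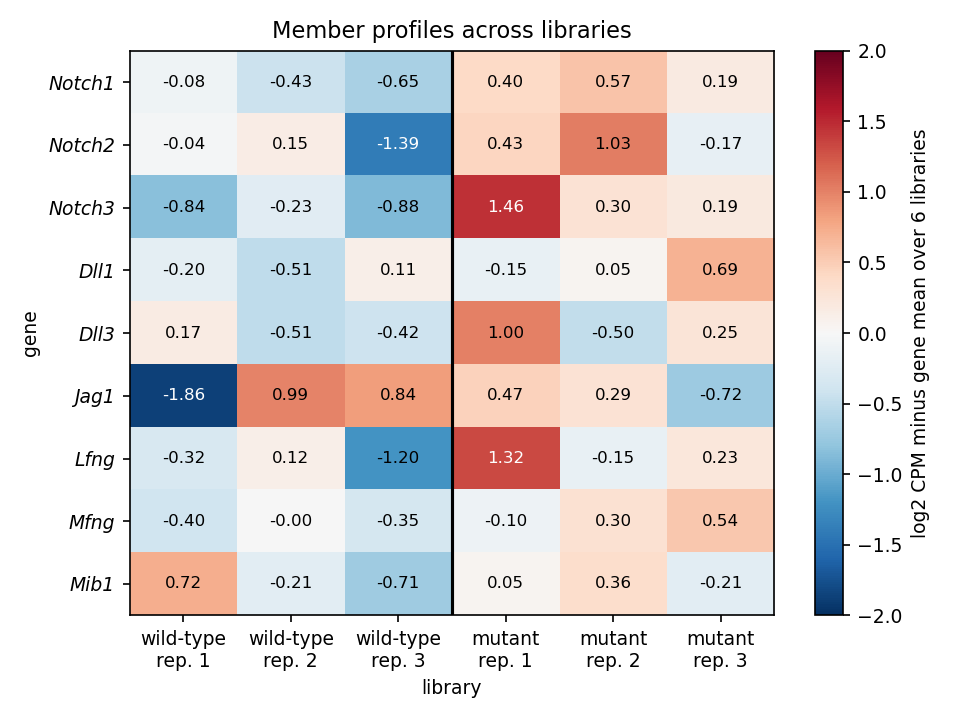
Log2 CPM of each gene (rows) in each library (columns) minus that gene's mean over the 6 libraries, with the value printed in each cell. Mutant replicate 1 is highest for Notch3 (1.46), Dll3 (1.00) and Lfng (1.32), wild-type replicate 3 is lowest for Notch2 (−1.39) and Lfng (−1.20), and wild-type replicate 1 is lowest for Jag1 (−1.86).

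By the same measure, the genes outside the set nearest to its mean profile, among 10099 whose mean log2 CPM reached 3, were Gareml (0.051), Gpr56 (0.061), 1700030K09Rik (0.085), Tef (0.086) and Hspa4l (0.10). The median over all genes ranked was 0.45. Gpr56, an adhesion receptor of radial glia also called Adgrg1, was at 415, 508 and 384 CPM with wild-type and 737, 585 and 598 CPM with mutant PRPF6. Tef, a PAR bZIP transcription factor, was at 38.7, 44.97 and 39.1 CPM and at 71.9, 62.6 and 57.4 CPM. Counts of Gareml and 1700030K09Rik were partly shared with other genes.

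Receptor and ligand signal were also set against each other within each library, which removes the scaling. CPM was summed without division by transcript length, so the ratio does not compare transcript numbers, and the ligands included Dll3. The log2 ratio of summed receptor CPM to summed ligand CPM was −0.21, 0.15 and −0.75 with wild-type and 0.15, 0.78 and −0.36 with mutant PRPF6. The means, −0.27 ± 0.46 and 0.19 ± 0.57 (SD, n = 3 each), differed by 0.46, and the groups overlapped (two-sided exact permutation p = 0.50, where 3 against 3 can reach 0.10). Mutant replicate 2, where Notch1 and Notch2 were at their highest, had the highest ratio, and without it the difference was 0.17. Leaving out wild-type replicate 3 gave 0.22, and leaving out mutant replicate 3 gave 0.73.

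Beyond the 9 genes, 66 other pathway genes in 6 lists were tested, and 0 passed the edgeR test after adjustment over all genes. Of these, 38 had higher and 28 lower fitted means, with a median log2 difference of 0.061, and 8 had an unadjusted p under 0.05, all in the higher direction. Over all genes, 2.18% had such a p in the higher and 1.2% in the lower direction. The lists were chosen with earlier results of these data known, so these counts are no test of the pathway. Other receptors, ligands and ligand modifiers were higher in 3 and lower in 7 of 10 (median −0.25). The neuralized ligase gene Neurl1a averaged 8.39 ± 1.21 and 2.46 ± 2.93 CPM, and Dlk1, a non-canonical Delta-like protein, 78.9 ± 34.4 and 160.6 ± 153.5 CPM (SD over 3 libraries, here and below wild-type then mutant).

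Enzymes that cut or glycosylate the receptor were higher in 8 and lower in 4 of 12 (median 0.12). Adam17, a metalloprotease that sheds receptor ectodomains, was at 46.8 ± 6.64 and 75.1 ± 18.8 CPM, from counts partly shared with other genes. Regulators of receptor turnover were split, 7 higher and 6 lower (median 0.057). Among them were the Deltex ligase genes Dtx4, at 44.8 ± 13.2 and 85.04 ± 38.9 CPM, and Dtx2, at 24.2 ± 4.88 and 34.5 ± 5.58 CPM. Nuclear partners of the receptor were higher in 5 and lower in 9 of 14 (median −0.085). The coactivator Maml2 was at 12.5 ± 2.22 and 21.5 ± 8.74 CPM and Snw1, a RBPJ-binding protein, at 194 ± 31.4 and 160.4 ± 21.5 CPM. Rbpj itself, named after its values were seen, was at 124 ± 4.29 and 128 ± 21.9 CPM.

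Targets of the pathway were higher in 9 and lower in 2 of 11 (median 0.69), and 4 had an unadjusted p under 0.05 in the higher direction, as did 2.18% of all genes. The feedback inhibitor Nrarp was at 109, 137 and 85.1 CPM with wild-type and 239.5, 176 and 197 CPM with mutant PRPF6. Sox9, also a radial glia transcription factor, averaged 274.5 ± 50.3 and 509.6 ± 89.2 CPM. The other 2, Hes5 and Fabp7, were chosen after their values were seen: Hes5 was at 161, 398 and 224 CPM with wild-type and 535, 259.7 and 1002 CPM with mutant PRPF6, where the groups overlapped, and Fabp7, a radial glia lipid-binding protein, reached 1535 CPM in mutant replicate 1 against 343 to 578 CPM elsewhere. Proneural factors and their partners, which induce Delta genes, were higher in 6 of 6 tested (median 0.39). Btg2, an antiproliferative gene of neurogenic progenitors, was at 147 ± 22.6 and 234 ± 11.6 CPM and Hes6 at 263 ± 26.8 and 327 ± 70.3 CPM.

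**Figure D4:**
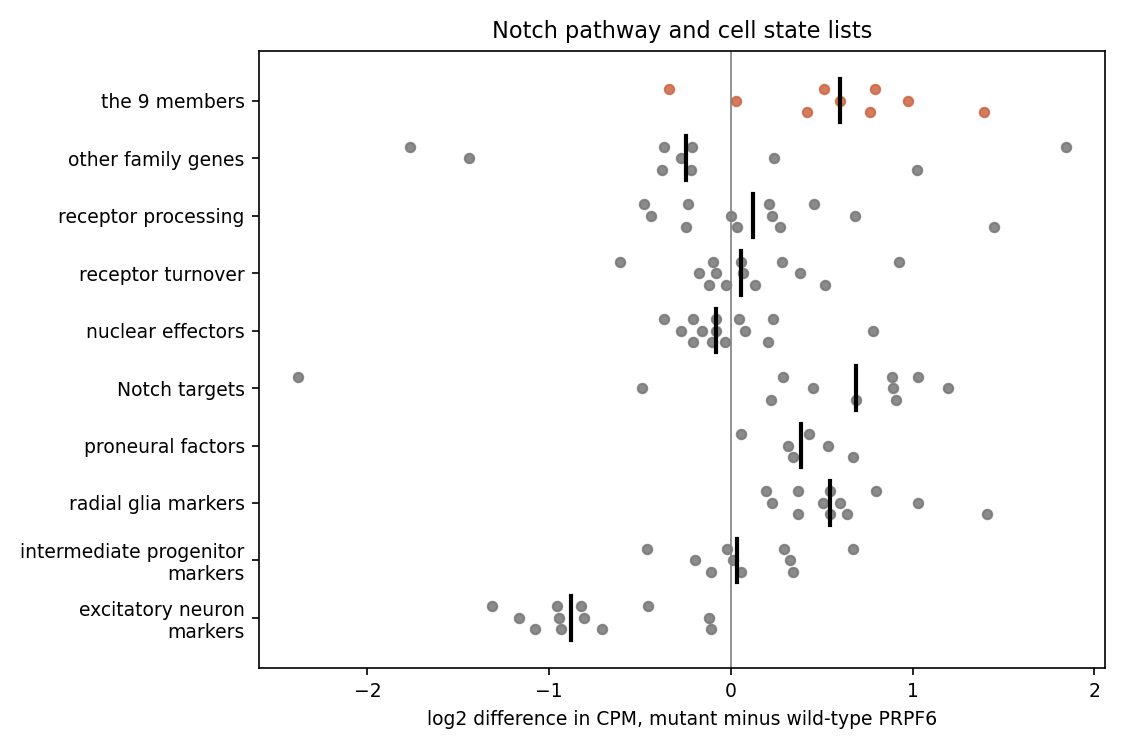
Log2 difference in CPM, mutant minus wild-type PRPF6 (x axis), of every tested gene of the 9-gene set, of 6 further Notch pathway lists and of 3 cell state lists (rows), with 1 point per gene and a black bar at the list's median. A gene held by more than 1 list has a point in each. Medians lie at 0.60 for the 9 genes, 0.69 for Notch targets, 0.55 for radial glia markers and −0.88 for excitatory neuron markers.

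The fitted means of marker lists are given beside those of the set, with 0 markers called in any list. Radial glia markers were higher in 12 of 12 (median log2 difference 0.55), intermediate progenitor markers in 6 of 10 (0.034), and excitatory neuron markers lower in 12 of 12 (−0.88). Markers of cells from outside the cortical lineage had lower fitted means too: red blood cells in 10 of 10 tested (−2.71), meningeal fibroblasts in 9 of 10 (−2.43), mural cells in 5 of 7 (−1.90) and endothelial cells in 6 of 6 (−1.56). The sum of each of these lists was highest in wild-type replicate 3. Endothelial sums were 184 CPM there and 10.9 and 9.41 CPM in wild-type replicates 1 and 2. They were 13.9 and 75.2 CPM in mutant replicates 1 and 2, and lowest in mutant replicate 3. Mural sums had the same order of these libraries against wild-type replicates 1 and 2. For red blood cells and meningeal fibroblasts, mutant replicates 1 and 3 lay below all wild-type libraries, and mutant replicate 2 did not. Microglia markers had higher fitted means in 8 of 10 (0.45). Their sums were 127, 332 and 246 CPM with wild-type and 37.5, 878 and 46.6 CPM with mutant PRPF6. Mutant replicate 2 alone lay above the wild-type libraries, and mutant replicates 1 and 3 lay below them all. These lists overlap with results already known for these libraries and are not independent of them. They also share genes with the pathway lists. Fabp7 is both a Notch target and a radial glia marker here. Neurog2, Insm1 and Btg2 are in both the proneural and the intermediate progenitor list. The mean log2 CPM of the radial glia list was 6.83, 7.14 and 6.48 with wild-type and 7.60, 7.20 and 7.42 with mutant PRPF6, which do not overlap. Its part in the levels of the 9 genes was not tested, but each gene can be set against the list within a library.

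Relative to the radial glia list, Notch1 was at 0.28, −0.37 and 0.069 with wild-type and at 0.0080, 0.57 and −0.033 with mutant PRPF6 (log2 units), and the groups overlapped. Its difference on this scale was 0.19. Notch3 was at −1.81, −1.51 and −1.50 with wild-type and −0.28, −1.04 and −1.37 with mutant PRPF6, a difference of 0.71, and was the one gene of the set with separate groups on this scale, as were 0.291% of all genes in the same direction. The list's own mean differed by 0.59, and subtracting it lowers every gene in the mutant libraries against the wild-type ones. That share is therefore not comparable with the 4.6% of all genes found for CPM. Of the other 7 genes, Notch2 (0.27) and Lfng (0.34) had higher means relative to the list with mutant PRPF6, and Dll1 (−0.19), Dll3 (−0.083), Jag1 (−0.57), Mfng (−0.088) and Mib1 (−0.46) had lower means, all with overlapping groups. Relative to intermediate progenitor markers, whose own mean differed by 0.062, Notch3 (1.24) and Mfng (0.44) had separate groups, as did 0.872% of all genes in that direction. Relative to excitatory neuron markers, whose own mean differed by −0.93, the groups of Notch1, Notch2, Notch3, Mfng and Mib1 were separate, as for 22.6% of all genes. Mfng relative to intermediate progenitor markers was at −1.45, −0.78 and −0.60 with wild-type and −0.48, −0.49 and −0.55 with mutant PRPF6.

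**Figure D5:**
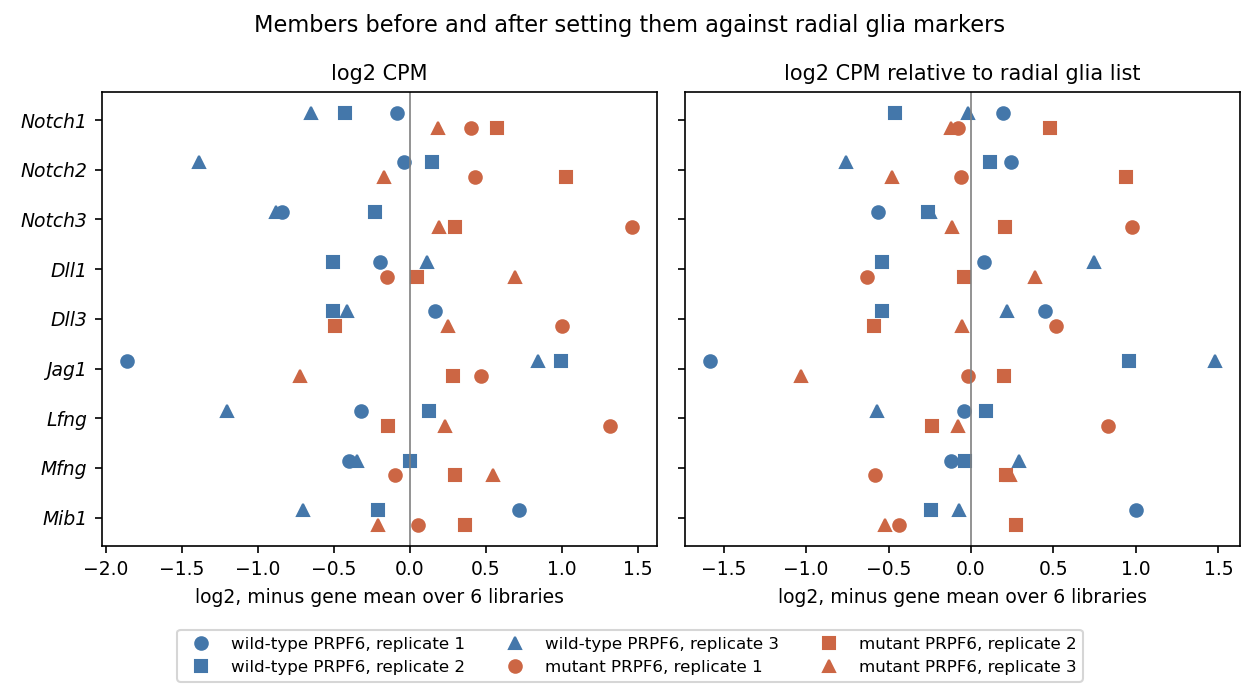
Log2 CPM of the 9 genes in each library (left) and the same values relative to the mean of the 12 radial glia markers in that library (right), each minus the gene's mean over 6 libraries (x axes). Wild-type and mutant symbols of Notch1 are separate on the left and overlap on the right, and those of Notch3 are separate in both.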

How the data were processed

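The authors deposited 1 table of expected counts per gene for 6 libraries, which RSEM produced on mm10 according to the submitters' processing notes, without scaling to depth. RSEM splits a read that matches several genes among them. None of the 9 genes had a count that was not whole. For the RSEM version, aligner, annotation, strand setting and filters, the entry is not given in the sources used here. Groups and replicate numbers came from the sample titles.

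Expected counts were rounded, filtered with filterByExpr, scaled with TMM factors (0.972 to 1.02, 1 count being 0.0164 to 0.0228 CPM) and compared between groups in edgeR 4.0.16 under R 4.3.3, by its robust quasi-likelihood test with no covariate, and Benjamini-Hochberg adjustment over all tested genes, threshold 0.05. The SE is the log2 difference over the square root of F. Log2 CPM used a prior count of 2. Intervals cover the spread between libraries, and reads without molecular identifiers are not independent molecules. Alternatives were DESeq2 1.42.0, limma-voom 3.58.1, other scalings, filters and thresholds, a replicate block and leaving out libraries. Leaving out 2 libraries together and setting genes against marker lists were chosen after seeing the data. Steps were tested on simulated data.

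Named were the 9 genes, the 2 genes of smallest unadjusted p in each pathway list, and the 5 genes nearest to the mean profile. One gene that this rule names is not reported here. The 9 genes and all lists were chosen with earlier results of these data known. Of 177 list entries, the 9 genes included, 176 were found in the table. Coordinates and lengths are from GENCODE M21 (GRCm38), by symbol, and start sites from RefSeq on GRCm38.p6.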

Additional observations from a re-analysis of the deposited data

How the results depend on the processing

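No setting called any of the 9 genes, and edgeR and limma-voom called 0 genes in every fit, while DESeq2 called 12 genes (9 higher, 3 lower) and gave no adjusted p for 7228. The lowest adjusted p of Notch1 and of Notch3 over the alternatives was 0.160 each, with DESeq2. Leaving out each library in turn, 7 to 8 genes of the set had higher means, the median log2 difference ran from 0.51 to 0.84, and 2 to 4 genes had all mutant above all wild-type libraries, with 4 without wild-type replicate 2 or mutant replicate 2. The share of all genes that did so rose as well, from 4.6% to between 8.21% and 10.9% (8.93% and 10.9% in those 2 fits). Leaving out wild-type replicate 3 together with mutant replicate 1 also gave 4, where 15.4% of all genes did so, and a median of 0.50. The estimate of Jag1 ran from −0.83 to 0.043 and that of Mib1 from −0.24 to 0.52 with 1 library left out, and Mib1 was at −0.22 without those 2 libraries. The cause was not tested. Every other setting kept the direction of all 9 genes. The receptor to ligand difference ran from 0.17 to 0.73 with 1 library left out.

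Replicates 1, 2 and 3 of the titles are numbered 1, 4 and 5 in the descriptions of both groups, and what these numbers mark is not given in the labels. The data gave no sign of pairing by number: deviations of same-numbered libraries from their group means correlated at 0.054, 0.061 and −0.26 over 14451 genes, and not every library correlated best with its own number. With a replicate block edgeR called 0 genes, 307 had an unadjusted p under 0.05 in place of 489, 8 of the 9 genes had higher means and their median was 0.51. Under the block the unadjusted edgeR p of Notch2 went from 0.105 to 0.0126 and that of Mfng from 0.0410 to 0.0555, with adjusted p of 1.00 for both. The receptor to ligand difference under the block was 0.46 (two-sided exact sign-flip permutation p = 0.25, the smallest that 3 pairs allow), with a higher ratio in the mutant library of all 3 pairs.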

Other observations

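Some genes of the pathway outside the 9 stood out in single libraries, and were named after their values were seen. Dll4, a Delta ligand of endothelial cells and of ventral progenitors, was at 20.1 CPM in mutant replicate 1 and at 0.043 to 5.57 CPM in the other 5 libraries, from counts partly shared with other genes. Endothelial markers in mutant replicate 1 summed to 13.9 CPM, against 184 CPM in wild-type replicate 3, where Dll4 was at 5.57 CPM. Dlk1 was at 336 CPM in mutant replicate 1 and at 42.2 to 110.6 CPM elsewhere. The same library had 20.6 CPM of Eomes, the defining transcription factor of intermediate progenitors, against 97.4 to 202 CPM elsewhere, and 97.3 CPM of Olig2, a transcription factor of ventral and glial progenitors, against 6.79 to 40.0 CPM. Heyl, a Notch target of mural cells, reached 20.3 CPM in wild-type replicate 3, the library with the highest mural and endothelial sums, and stayed between 0.043 and 3.78 CPM in the other 5. Jag2, a second Jagged ligand, ranged from 0.103 CPM in mutant replicate 1 to 20.8 CPM in wild-type replicate 3.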
